A study of Mus musculus with 6 samples.

Results

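The 10 genes described here encode enzymes and regulators of ceramide and sphingomyelin metabolism, measured in fasted mouse fat. They were taken by symbol from the gene table, which holds 45777 genes: Sptlc1, Sptlc2, Ormdl3, Cers2, Cers4, Cers5, Cers6, Degs1, Asah1 and Sgms1. All 10 were found, and all 10 passed the filter on low counts that left 17820 genes. Cers4 was the starting point, and the genes were proposed with their counts in this same contrast in view, so their differences are given as a description with no test. The libraries came from the epididymal fat pad of C57BL/6 mice after 24 h without food. Of 6 libraries, 3 are from mice with both alleles of the kinase gene Pak4 flanked by loxP sites (Pak4 flox/flox, labelled WT). The other 3 are from Pak4 flox/flox mice that also carry Adipoq-Cre, a Cre recombinase driven by the adiponectin promoter of adipocytes (labelled KO). Every mouse therefore carries the floxed alleles, the labels name no Cre for the WT libraries, and the sources used here give no ages.

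Ceramide is the hub of sphingolipid metabolism. Serine palmitoyltransferase joins serine to a fatty acyl-CoA, a reductase makes the sphingoid base, ceramide synthases add an acyl chain to it, and a desaturase turns dihydroceramide into ceramide. Ceramide is then built into sphingomyelin or glycosphingolipids, or cut by ceramidases to sphingosine, which kinases turn into the signalling lipid sphingosine 1-phosphate. In fat, ceramides are known for antagonising insulin signalling, and the acyl chain chosen by each ceramide synthase is known to matter for this.

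Total counts were 62854465 to 72005658 per library, so the 10 genes had between 2400 and 38417 counts each. The labels number the libraries of a group without saying that each is a separate mouse, so every error and p-value here covers library-to-library spread, which may be technical. Pak4 counts were 339, 337 and 358 under the WT label against 815, 744 and 675 under the KO label, opposite to the direction of the label. Its log2 fold change was 0.96 ± 0.14 (adjusted p 0.0898 in edgeR). Over 13 alternatives the adjusted p of Pak4 ran from 1.67e-05 with DESeq2 to 0.403 in edgeR without KO 2. It was under 0.05 in 2 of them, DESeq2 and edgeR without KO 1 (0.0313). The counts themselves were higher in every library labelled KO. Directions are therefore given between the libraries labelled WT and KO and not between genotypes. On the first principal component the library labelled KO 1 (-1.85) lay between those labelled WT (-53.5 to -12.3) and the other two labelled KO (40.9 and 53.5). Levels below are CPM (counts relative to the total of a library after TMM scaling, a correction for library composition), as mean ± SD with n = 3. Fold changes are log2 values of KO over WT labels ± SE. Scaling by library size alone raised the median log2 fold change of all genes by 0.12. Across all genes, 3 of 17820 passed an adjusted p of 0.05 in edgeR's quasi-likelihood test (0.0168%).

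Relative to their WT means, the ceramide synthase gene Cers4 and the desaturase gene Degs1 were the lowest of the 10 in the libraries labelled KO, at 65.6% and 65.0%. The ceramidase gene Asah1 was at 122.9% of its WT mean. The serine palmitoyltransferase genes Sptlc1 and Sptlc2 were at 102.7% and 97.4% and the sphingomyelin synthase gene Sgms1 at 98.9%. Cers2, the ceramide synthase gene with the highest level per transcript length, was at 87.1%. In TMM-scaled CPM the groups did not overlap for 5 of the 10 genes. Values under the KO label were lower for Cers2, Cers4, Cers5 and Degs1 and higher for Asah1. Over all tested genes the groups did not overlap for 26.2% by the same measure. For Cers2 and Cers5 the separation depended on the scaling. With counts over library totals alone, Cers5 and, barely, Cers2 overlapped. In the deposited TPM, Cers5 overlapped too, at 54.8 in KO 2 against 54.3 in WT 1. In these bulk libraries, fewer cells of a type and less RNA per cell cannot be told apart.

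**Figure D1:**
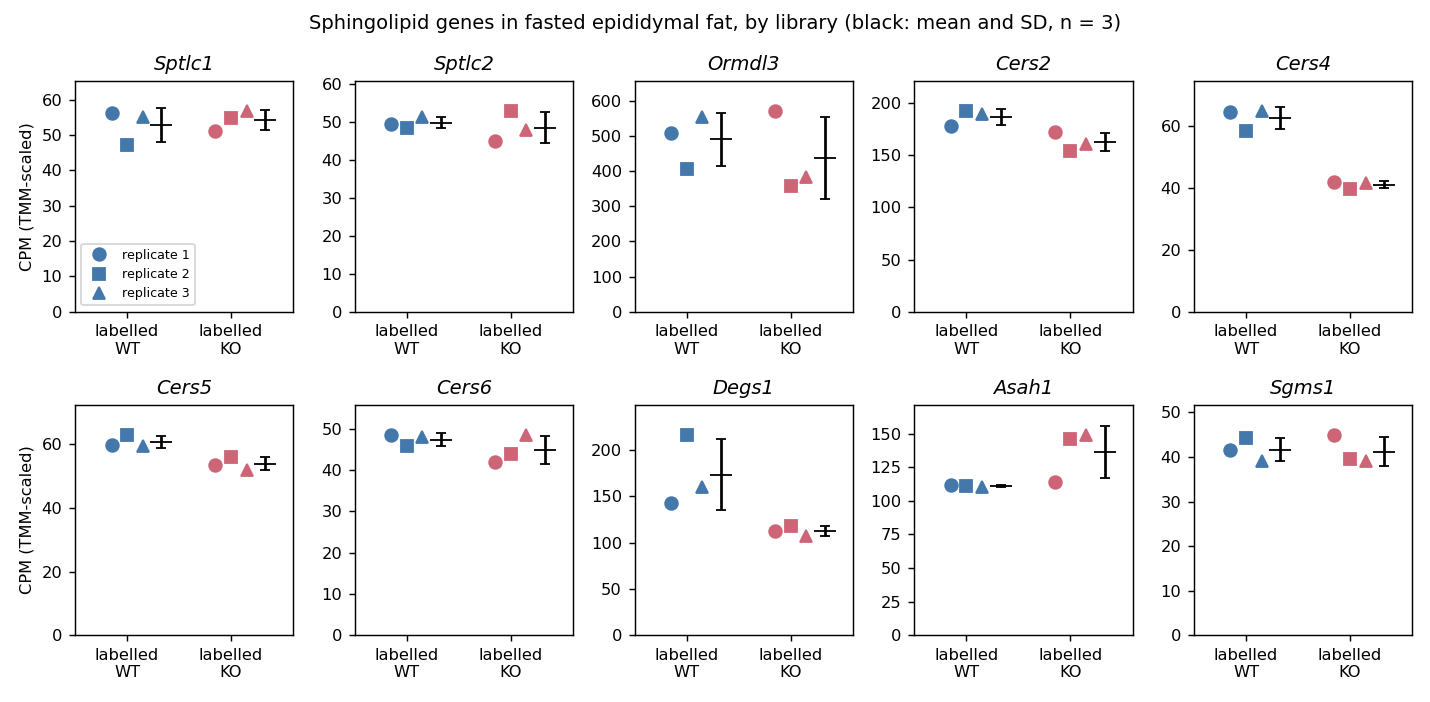
TMM-scaled CPM (vertical axis, from 0) of each of the 10 genes in each library, with replicates as symbols and the group mean and SD in black (n = 3). Cers4 lies at 58.5 to 64.8 CPM under the WT label and at 39.8 to 41.8 CPM under the KO label, while Sptlc1, Sptlc2, Cers6, Ormdl3 and Sgms1 overlap.

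Transcripts of Sptlc1 and Sptlc2, subunits of the first enzyme of the pathway, had similar levels under both labels. Sptlc1, which encodes a core subunit of serine palmitoyltransferase, had 56.1, 47.2 and 55.1 CPM under the WT label against 51.1, 54.9 and 56.7 CPM under the KO label. The groups overlapped (log2 fold change 0.04 ± 0.10). Sptlc2, the catalytic partner subunit, had 49.3, 48.5 and 51.3 CPM against 44.8, 52.8 and 47.7 CPM. The KO libraries lay on both sides of the WT range (log2 fold change -0.04 ± 0.09). Sptlc1 is on chromosome 13 (53332748 to 53377417 in mm10) and Sptlc2 on chromosome 12 (87305058 to 87388355).

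Ormdl3 encodes a membrane protein that holds back serine palmitoyltransferase when ceramide is plentiful, and it had the largest SE of the 10 genes. Its values were 510, 408 and 555 CPM under the WT label against 571, 357 and 382 CPM under the KO label. KO 1 was the highest library of all and the other two labelled KO were the lowest, so the log2 fold change of -0.17 ± 0.21 averages over both; without KO 1 it was -0.41. Of its transcript sequence, 4.5% of 50-base words also occur in the annotated gene Gm12538, so a share of its reads could be assigned to either. Its paralog Ormdl1 had 9.47, 8.65 and 9.16 CPM under the WT label and 10.1, 12.2 and 12.5 CPM under the KO label. All 3 KO values were above all WT values, but Ormdl1 did not pass over all genes (0.35 ± 0.12, adjusted p 0.196 in edgeR). Ormdl2, the third family member, stood at -0.08 ± 0.14.

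Of 10 further genes of this first stretch of the pathway, 6 were tested and 0 passed in edgeR. Of these, 1 higher and 2 lower genes had an unadjusted p under 0.05, which 19.4% of all tested genes reached. Rtn4 encodes the reticulon Nogo, one form of which restrains serine palmitoyltransferase. It had 293, 353 and 315 CPM under the WT label against 237, 256 and 237 CPM under the KO label, with no overlap (-0.40 ± 0.11, adjusted p 0.157). Kdsr, the reductase that follows serine palmitoyltransferase, stood at -0.17 ± 0.11 with overlapping groups. Sptlc3, an alternative subunit, had only 9 to 57 counts per library (-1.55 ± 0.58, adjusted p 0.213). WT 2 was far above the other libraries. The groups did not overlap in CPM, but WT 1 and KO 3 had the same count of 14.

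Cers4 encodes a ceramide synthase that prefers long-chain acyl-CoA such as stearoyl-CoA. It lies on chromosome 8 at 4492818 to 4529603 in mm10. Counts were 3947, 3923 and 3976 under the WT label against 2810, 2773 and 3095 under the KO label, or 64.4, 58.5 and 64.8 CPM against 41.8, 39.8 and 41.5 CPM. All KO libraries lay below all WT libraries and close to each other. The means were 62.6 ± 3.52 and 41.0 ± 1.08 CPM, a log2 fold change of -0.61 ± 0.08. KO 1, which was between the groups on the first principal component, was with the other KO libraries for Cers4, and without it the fold change was -0.62.

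The other ceramide synthase genes differed less. Cers2, whose enzyme makes very-long-chain ceramides, had 178, 192 and 190 CPM under the WT label against 172, 154 and 161 CPM under the KO label. The groups were separate, but KO 1 lay only just below WT 1 (-0.20 ± 0.09; -0.08 with scaling by library size alone). Cers5, one of the pair of enzymes that prefer palmitoyl-CoA, had 59.5, 62.8 and 59.4 CPM against 53.5, 55.9 and 51.9 CPM (-0.17 ± 0.08; -0.05 with library size alone). Cers6, the other enzyme of that pair, had 48.4, 45.7 and 48.0 CPM against 41.9, 43.8 and 48.5 CPM. Its groups overlapped, and its log2 fold change of -0.08 ± 0.09 turned to 0.04 with library size alone. Cers3, the synthase of skin and testis, had 3 to 16 counts per library and was not tested. Cers1, the synthase of neurons and muscle, had 0 counts in all 6 libraries, where a count of 0 allows up to 0.0477 CPM in a library; it shares a locus with Gdf1, which had 6 to 41 counts.

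Levels of different genes can be compared per transcript length, for which the deposited TPM was used. In the libraries labelled WT, Cers2 stood at 163 ± 8.32 TPM, Cers5 at 55.2 ± 0.99 TPM, Cers4 at 17.9 ± 1.56 TPM and Cers6 at 12.2 ± 0.80 TPM. Cers2 made up 64.1% to 67.5% of the summed ceramide synthase TPM over the 6 libraries. The share of Cers4 was 8.14%, 6.89% and 6.64% under the WT label against 5.58%, 6.25% and 5.04% under the KO label, with no overlap. Cers6 had 5.17%, 4.64% and 4.99% against 4.88%, 5.39% and 5.95%, with overlap. In the libraries labelled KO the TPM of Cers4 (10.8 to 14.1) and Cers6 (11.1 to 12.8) overlapped, while under the WT label Cers4 was above Cers6 in every library. The summed TPM of all 6 synthase genes was 242, 244 and 258 against 228, 226 and 215.

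**Figure D2:**
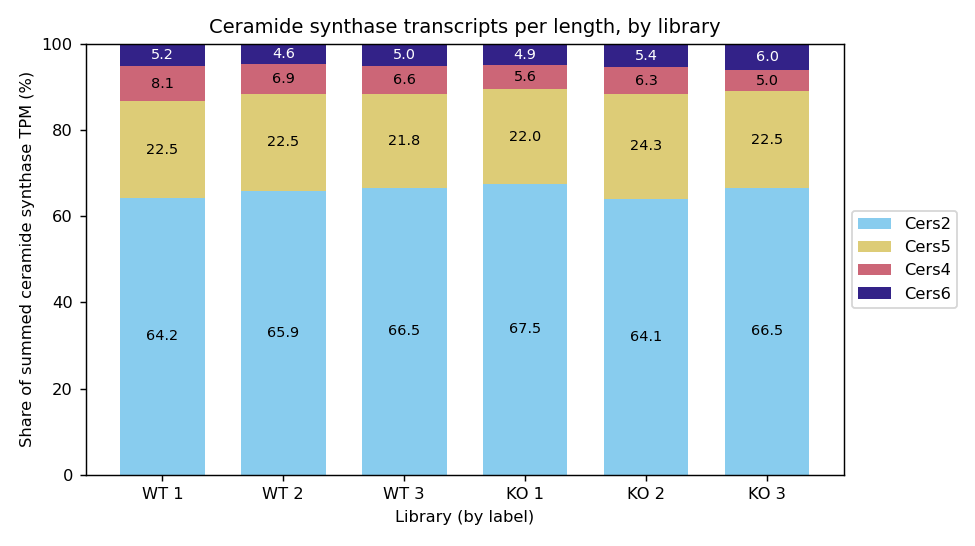
Share of the summed ceramide synthase TPM (vertical axis, percent) taken by Cers2, Cers5, Cers4 and Cers6 in each library. Cers2 holds 64.1% to 67.5% throughout, and the Cers4 band is 6.64% to 8.14% under the WT label against 5.04% to 6.25% under the KO label.

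Cers4 stood apart from the other 9 genes in how its TPM followed its counts. The ratio used was CPM without TMM scaling per TPM, which rises with the transcript length used for a gene. Each library was divided by its median relative ratio over those 9 genes, a scaling that left Cers4 out. After this, the ratio of each of the 9 genes differed between libraries by at most 1.03-fold. For Cers4 the scaled ratio ranged 1.30-fold, from 2.97 in KO 2 to 3.86 in WT 3. KO 3 was at 3.84 and the other libraries were at 3.21 to 3.31. High and low values came from both labels. With 1 fixed length per gene, the Cers4 share became 7.70%, 6.64% and 7.45% against 5.42%, 5.49% and 5.63%, again with no overlap. GENCODE M21 lists 9 transcripts of Cers4 with 12264 exonic bases in all, the most of the 10 genes. On the opposite strand, 886 of these bases lie in the pseudogene Vmn2r-ps89 and 214 in Gm36956, and no source used here says whether the counting used strand. Of its 50-base words, 8.48% also occur in transcripts of other genes, read on either strand. Of these 1053 words, 837 are shared with Vmn2r-ps89 and 165 with Gm36956, so they largely restate that overlap. No 50-base word of Cers5 or Cers6 occurs in another annotated gene. The 79 shared words of Cers2 are with 6330562C20Rik (53) and Setdb1 (26). Cers2, Cers4, Cers5 and Cers6 thus share no word of that length with each other.

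Degs1 encodes the desaturase that completes ceramide. It is on chromosome 1 at 182275964 to 182282854. Its values were 143, 216 and 160 CPM under the WT label against 113, 118 and 107 CPM under the KO label. All KO libraries were below all WT libraries, with WT 2 far above the other two. The means were 173 ± 38.2 and 112 ± 5.75 CPM, a log2 fold change of -0.62 ± 0.16, which was -0.43 without WT 2. Its paralog Degs2 had 0 to 14 counts per library and was not tested. By TPM, Degs1 was level with Cers2 in the libraries labelled WT (140.9 to 205.1 against 155.1 to 171.5) and level with Asah1 in those labelled KO (107.5 to 125.3 against 95.4 to 127.9).

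RefSeq promoter entries of GRCm38.p6 were matched for 9 of the 10 genes, with 13 start sites in all (2 of Cers2, 4 of Sgms1 and 1 of each other gene), and the 250 bases before each listed start were searched. The listed start is not always the outermost one. It lies inside the RefSeq gene span given above, by 587 bases for Cers4, 659 for Degs1, 296 for Cers6 and 419 for the first start of Cers2. Of the 250 bases, 221 for Cers4, 106 for Cers2 and 29 for Degs1 are in exons of the same gene in GENCODE M21, so these windows are not purely upstream sequence. The 30-base stretches below are shown because Degs1, Cers2 and Cers6 share CACGTG, the E-box bound by many basic helix-loop-helix factors. Cers4, the starting point, is shown beside them. It holds no CACGTG but has the GC box GGGCGG, which was found in 7 of the 9 genes. Capitals mark CACGTG in the first 3 and GGGCGG in Cers4. The Cers2 stretch also holds a GC box on the other strand, at position -119, which is left in small letters. The stretches lie at chr1:182282221-182282250 (minus strand), chr3:95315049-95315078 (plus strand), chr2:68861407-68861436 (plus strand) and chr8:4493215-4493244 (plus strand).
Degs1: gggagcctcaatCACGTGgtccagtcagct
Cers2: cgccctgcggggCACGTGccacccgccccg
Cers6: cggccaggctgcCACGTGacaggcgaggcg
Cers4: attaggggctcaGGGCGGggtctggaggag
Counted from the listed start, CACGTG was at position -43 in Degs1, -129 in Cers2 and -22 in Cers6, and GGGCGG at -178 in Cers4. CACGTG was in 3 of the 13 windows and in 6.02% of all 32851 windows of the same length. The genes that hold it had log2 fold changes of -0.62, -0.20 and -0.08. GGGCGG was in 8 of the 13 windows and in 32.7% of all. Those 8 belong to Cers2, Cers4, Cers5, Ormdl3, Sgms1, Sptlc1 and Sptlc2. Neither holding GGGCGG nor lacking CACGTG therefore sets Cers4 apart. Of 8 other motifs searched on both strands, CCAAT (33.8% of all windows) matched in 5 of the 13, TCACGTG (3.13%, which contains CACGTG) in Degs1 and Cers6, TGACGTCA (1.55%) in Ormdl3, TTGCNNAA (9.56%) at the second start of Cers2 and CCGGAAG (6.91%) in Sptlc1. TATAAA (12.4%), TCACNCCAC (1.05%) and the NRF1 motif (3.74%) matched in none of the 13. The windows with CACGTG were 69.6% to 74.8% G and C, and those with GGGCGG 55.2% to 76.0%. The median over all windows was 52.4%. The shares of windows were not adjusted for this or for the several starts of 1 gene, so they do not show enrichment.

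Asah1 was the 1 gene of the 10 with higher values throughout the libraries labelled KO. It encodes the acid ceramidase of the lysosome, on chromosome 8 at 41340646 to 41397644. Its values were 112, 111 and 110 CPM under the WT label against 114, 146 and 149 CPM under the KO label. KO 1 lay just above the WT libraries, and KO 2 and KO 3 lay well above them (0.30 ± 0.12; 0.41 without KO 1). Markers of macrophages, progenitors and fibroblasts, and mesothelium also had their highest sums in KO 2 and KO 3. All 12 tested macrophage markers had log2 fold changes above 0, and their summed level was 1788 to 2170 CPM under the WT label, 1910 CPM in KO 1, and 2528 and 2583 CPM in KO 2 and KO 3. Progenitor and fibroblast markers summed to 4224 to 4541 CPM under the WT label, 4109 CPM in KO 1, and 5637 and 5835 CPM in KO 2 and KO 3. Mesothelial markers summed to 587 to 962 CPM under the WT label, 948 CPM in KO 1, and 1084 and 1167 CPM in KO 2 and KO 3. The part of these cells in the Asah1 values was not tested.

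Of the other tested ceramidase genes, Acer2 had the lowest log2 fold change. Acer2, the alkaline ceramidase of the Golgi, had 62.6, 65.5 and 55.1 CPM under the WT label against 42.3, 23.1 and 27.7 CPM under the KO label. Its KO mean was 50.9% of its WT mean (-0.98 ± 0.21), with no overlap and with KO 1 nearest to the WT libraries. It did not pass in edgeR (adjusted p 0.136), but it passed with DESeq2 (adjusted p 0.00102) and in edgeR without KO 1 (-1.27, adjusted p 0.0232), and its adjusted p ran from 0.00102 to 0.414 over 13 alternatives. Asah2, the neutral ceramidase, stood at 0.06 ± 0.08 and Acer3, an alkaline ceramidase, at 0.19 ± 0.16, both with overlapping groups. Adiponectin receptors have ceramidase activity: Adipor1 had a log2 fold change of -0.26 ± 0.12 with no overlap in CPM (adjusted p 0.273). The gap was narrow, at 201 CPM in KO 1 against 204 CPM in WT 1, and the deposited TPM overlapped. Adipor2, named after its values were seen, had 1404, 1232 and 1598 CPM against 1661, 1441 and 1431 CPM, with overlap (0.10 ± 0.15, adjusted p 0.736). Adipoq itself, whose promoter drives the Cre, stood at 0.25 ± 0.18 with overlapping groups. Of 8 genes in this list 7 were tested, 0 passed, and 0 higher and 1 lower gene had an unadjusted p under 0.05. That was 14.3% of the 7, against 19.4% of all tested genes.

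Sgms1, the sphingomyelin synthase of the Golgi, had 41.6, 44.3 and 39.1 CPM under the WT label against 45.0, 39.5 and 39.1 CPM under the KO label. The groups covered nearly the same range (-0.02 ± 0.09), and the sign turned with library size alone (0.10). Its paralogs Sgms2 (-0.13 ± 0.14) and Samd8 (0.08 ± 0.09) also overlapped. Among the 12 genes of sphingomyelin turnover and ceramide transfer 0 passed in edgeR, and 1 higher and 3 lower genes had an unadjusted p under 0.05. These were 33.3% of the list, against 19.4% of all tested genes. Smpd1, the acid sphingomyelinase, had 117, 146 and 120 CPM against 109, 100 and 81.3 CPM, with no overlap (-0.40 ± 0.14, adjusted p 0.201). Gltp, a glycolipid transfer protein, had 124, 168 and 133 CPM against 117, 102 and 85.8 CPM (-0.47 ± 0.15, adjusted p 0.189). Col4a3bp, which encodes the ceramide transfer protein CERT that feeds sphingomyelin synthesis, overlapped between labels (-0.29 ± 0.11, adjusted p 0.223). Smpdl3b, a sphingomyelinase-like surface protein, had 5.03, 4.80 and 5.15 CPM against 6.35, 6.29 and 7.44 CPM (0.42 ± 0.13, adjusted p 0.172).

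Genes of glycosphingolipid synthesis overlapped between labels in all 10 that were tested of 12, with 0 passing. An unadjusted p under 0.05 was reached by 19.4% of all tested genes and by 1 gene of this list, which was higher. That gene was St3gal5, which makes the ganglioside GM3 (0.42 ± 0.17, adjusted p 0.243), while B4galt5, a lactosylceramide synthase, stood at 0.25 ± 0.12. A4galt (0.08 ± 0.12) and Fa2h (0.44 ± 0.65), the ceramide fatty acid hydroxylase at under 1 CPM, completed the 4 with the smallest p. In the lysosome, 0 of 11 tested genes of glycosphingolipid breakdown passed. At an unadjusted p under 0.05, 1 was higher and 2 were lower, 27.3% of the list against 19.4% of all tested genes. Psap, the precursor of the saposins that present lipids to these enzymes, had 1497, 1836 and 1612 CPM under the WT label against 1349, 1379 and 1096 CPM under the KO label, with no overlap (-0.37 ± 0.15, adjusted p 0.236). Glb1, the beta-galactosidase, stood at -0.38 ± 0.14, against 0.45 ± 0.17 for Gla, the alpha-galactosidase (adjusted p 0.221 and 0.222), both with no overlap. The gaps were narrow, with Glb1 at 47.6 CPM in KO 2 against 47.8 CPM in WT 3. Gla was at 8.58 CPM in KO 1 against 8.31 CPM in WT 3. In this list 4 of 11 genes did not overlap, against 26.2% of all tested genes. Among genes of one organelle, the mean under the KO label was thus higher for Asah1 and Gla and lower for Psap and Glb1. Gla, Psap and Glb1 did not pass, and Asah1 carries no test.

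Among genes of sphingosine 1-phosphate metabolism and signalling the smallest p was that of Sgpp1. Sgpp1, which takes the phosphate off, had 40.9, 42.5 and 39.7 CPM under the WT label against 48.5, 57.2 and 56.7 CPM under the KO label. The groups did not overlap, and KO 1 was again the nearest to the WT libraries (0.40 ± 0.09, adjusted p 0.144 in edgeR; 0.0211 with DESeq2; 0.0330 without KO 1; 0.0211 to 0.421 over 13 alternatives). S1pr2, a receptor of sphingosine 1-phosphate, had 8.96, 10.8 and 9.96 CPM against 11.7, 15.2 and 13.1 CPM (0.43 ± 0.13, adjusted p 0.172). S1pr1, the receptor of endothelium and lymphocytes, stood at -0.15 ± 0.08 with no overlap in CPM. Its gap was narrow, at 37.6 CPM in KO 3 against 38.5 CPM in WT 1, and its deposited TPM overlapped. Plpp2, a lipid phosphate phosphatase, had 22.2, 20.6 and 22.1 CPM against 20.0, 16.3 and 15.8 CPM (-0.32 ± 0.11, adjusted p 0.204; -0.43 and 0.0488 without KO 1). Of 16 genes 15 were tested, 0 passed, and 2 were higher and 1 lower at an unadjusted p under 0.05. These were 20.0% of the 15, against 19.4% of all tested genes.

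**Figure D3:**
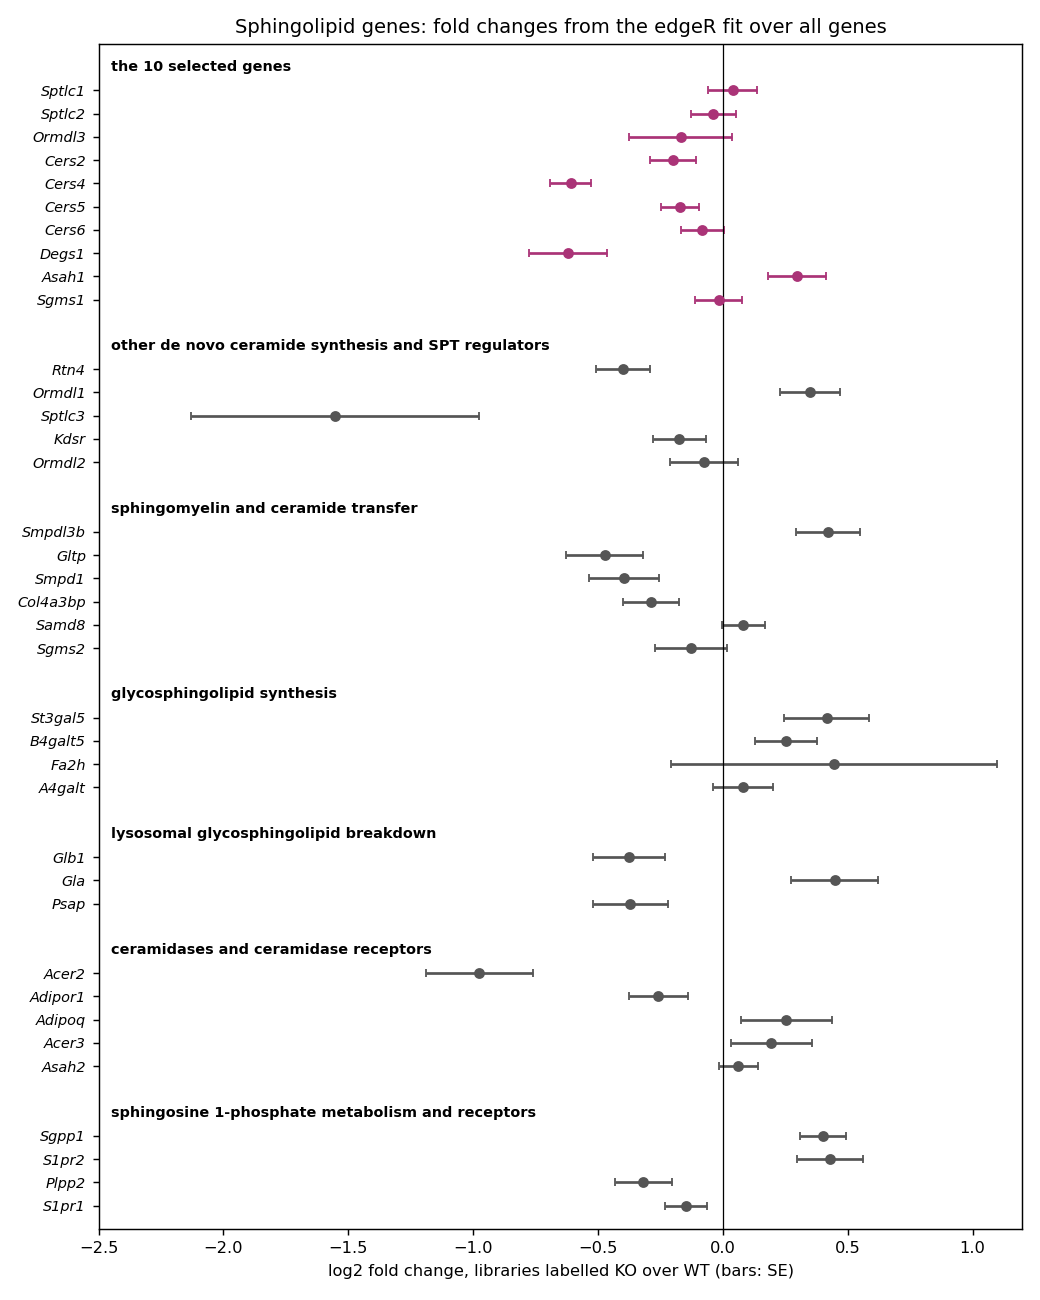
Log2 fold change of KO over WT labels with its SE (horizontal axis) for the 10 selected genes and the named genes of each further list. Cers4 (-0.61) and Degs1 (-0.62) are the lowest of the 10, Acer2 (-0.98) lies lower, and Sptlc3 (-1.55) has the widest error of the lower genes.

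Over the 6 further lists, 61 of 69 genes were tested and 0 passed in edgeR's quasi-likelihood test. Unadjusted p-values under 0.05 belonged to 6 higher and 9 lower genes, 24.6% of the 61, against 19.4% of all genes (9.66% higher and 9.71% lower). DESeq2 called 3 of them, Acer2, Rtn4 and Sgpp1, against 6.88% of the 15225 genes to which it gave an adjusted p. In edgeR without KO 1, Acer2, Plpp2 and Sgpp1 passed, again 3 genes, against 5.57% of the 18237 genes tested there. The median log2 fold change was -0.02 over the 61, -0.13 over the 10 selected genes and 0.02 over all genes. Of the 10, 8 lay below 0, as did 8533 of 17820 genes. With library size alone, which moves all genes by about the same amount, 5 of the 10 and 5872 of the 17820 lay below 0.

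**Figure D4:**
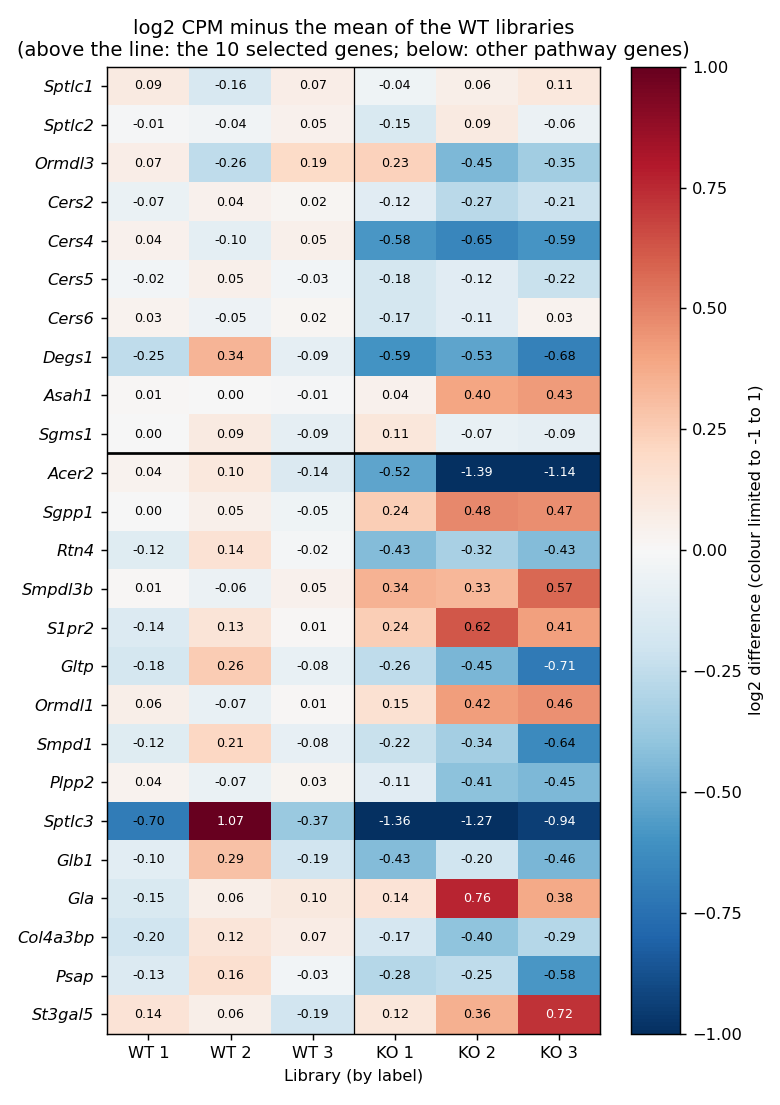
Log2 CPM of each library minus the mean of the WT libraries, for the 10 selected genes (above the line) and the 15 other pathway genes with the smallest p (below it). In the KO 1 column Cers4 (-0.58), Degs1 (-0.59) and Rtn4 (-0.43) are as low as in KO 2 and KO 3, while Asah1 (0.04), Ormdl3 (0.23) and Acer2 (-0.52) are nearer to the WT libraries or above them.

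For some genes KO 1 lay with KO 2 and KO 3, and for others it did not. Relative to the WT mean, Cers4 was at -0.58, -0.65 and -0.59 on the log2 scale in KO 1, KO 2 and KO 3, and Degs1 at -0.59, -0.53 and -0.68. Asah1 was at 0.04, 0.40 and 0.43, and Ormdl3 at 0.23, -0.45 and -0.35. Acer2 was at -0.52, -1.39 and -1.14.

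By Pearson correlation of log2 CPM over the 6 libraries, among 9035 genes with a mean of at least 10 CPM (predicted genes left out), the genes most like Cers4 were Cgrrf1 (r = 0.987), Ube2f (0.986), Morf4l1-ps1 (0.985), Vdac1 (0.985) and Memo1 (0.985). Their log2 fold changes were smaller than that of Cers4, from -0.58 for Morf4l1-ps1, a pseudogene whose counts are uncertain, to -0.21 for Ube2f. Vdac1, a channel of the outer mitochondrial membrane, had 225 and 174 CPM under the WT and KO labels. The most opposite were Arhgef10l (r = -0.994), Ift122 (-0.993), Wtap (-0.989), C1d (-0.987) and Mtx3 (-0.985), with log2 fold changes of 0.13 to 0.56. These values share 6 libraries that fall into 2 labelled groups, and carry no test.

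Although the cell type label reads adipocytes, the excised pad was extracted, and markers of several cell types were present. The 14 mature adipocyte markers summed to 64336 to 69761 CPM under the WT label against 61716 to 65041 CPM under the KO label, which overlap; 10 of the 14 had log2 fold changes below 0, with a median of -0.22, in the same direction as Cers4 and Degs1. The 10 endothelial markers shared that direction and did not overlap in sum, at 287 to 368 against 243 to 262 CPM, with 8 of 10 below 0 and a median of -0.41. Smooth muscle and pericyte markers overlapped in sum (359 to 1683 against 241 to 510 CPM), with 6 of 8 below 0 and a median of -0.42. In the other direction, the 12 macrophage markers had a median of 0.31, and 8 of 9 mesothelial markers were above 0 with a median of 0.51. All 7 B and plasma cell markers were above 0, at sums of 11.5 to 27.1 against 30.2 to 42.1 CPM with no overlap. Progenitor and fibroblast markers (6 of 10 above 0, median 0.11) and T and NK cell markers (3 of 7 above 0, median -0.16) were mixed. In edgeR's test 0 genes of any marker list passed. At an unadjusted p under 0.05, 9.66% of all tested genes were higher and 9.71% lower. By that p, 7 macrophage, 4 mesothelial, and 4 progenitor and fibroblast markers were higher. So were 2 adipocyte, 2 B and plasma cell, and 1 T and NK cell marker. Lower by that p were 6 endothelial, 3 smooth muscle and pericyte, and 2 adipocyte markers. The progenitor and fibroblast list and the T and NK cell list each had 1 lower marker. Of 9 markers of epididymal epithelium and sperm, 4 (Lcn5, Lcn8, Cst8 and Defb20) had 0 counts in every library, and the 2 that were tested summed to under 2 CPM. The part of these cell types in the values of the 10 genes was not tested.

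**Figure D5:**
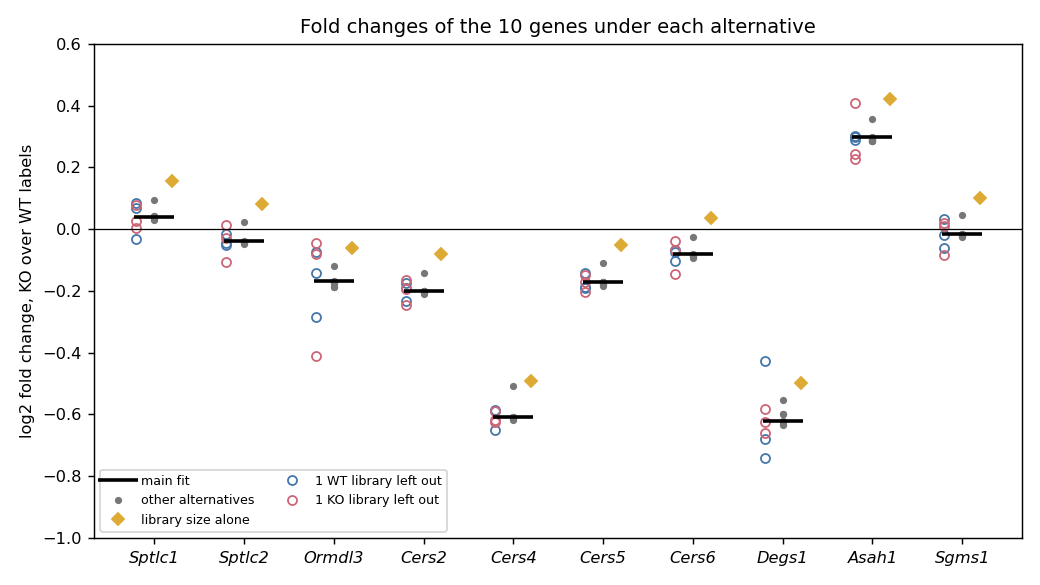
Log2 fold change of KO over WT labels (vertical axis) of each of the 10 genes in the reported fit (black bar), with 1 library left out (open circles), with library size alone (diamonds) and under the other alternatives (dots). Cers4 stays between -0.65 and -0.49 and Degs1 between -0.74 and -0.43, while Sptlc1, Sptlc2, Cers6 and Sgms1 fall on both sides of 0.

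Over 14 alternatives the log2 fold change of Cers4 ran from -0.65 to -0.49, that of Degs1 from -0.74 to -0.43 and that of Asah1 from 0.23 to 0.42. Cers2 (-0.24 to -0.08), Cers5 (-0.20 to -0.05) and Ormdl3 (-0.41 to -0.04) also stayed below 0. The sign of Sptlc1, Sptlc2, Cers6 and Sgms1 changed in 1, 3, 1 and 5 of the 14.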

How the data were processed

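Whole epididymal fat was kept in RNAlater, and mRNA libraries were made with a stranded kit, per the labels' protocols. The submitters' processing notes name, without roles, StringTie 2.1.3b, HISAT2 2.1.0, Bowtie2 2.3.4.1 and the build mm10. No source used here says whether counting used strand. The authors deposited whole-number read counts, FPKM and TPM for 45777 genes. The counts entered the fit, the deposited TPM served for levels between genes, and the deposited FPKM was not used.

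Low genes were removed by filterByExpr with its defaults (minimum count 10, total 15). The 17820 genes left were scaled by TMM and fitted with edgeR 4.0.16 (robust glmQLFit and glmQLFTest, two-sided, Benjamini-Hochberg over all genes, threshold 0.05) in R 4.3.3. Each standard error is the absolute log2 fold change divided by the square root of its F. On simulated counts for this comparison, with 17469 genes run, 72% of genes changed by 1 on the log2 scale were recovered. Of those changed by 2, 96% were recovered, and 11 unchanged genes were called. The changed genes had a mean of at least 1 CPM, and no library was simulated to lie between the groups as KO 1 did. These shares check the fit and do not give its power on the deposited libraries. Alternatives were DESeq2 1.42.0, limma 3.58.1 (voom), other scalings, no filter, no robust step, a replicate block, each library left out and the TPM. Log2 CPM used a prior count of 2. The 10 genes and the lists were chosen with earlier results of these data known. The text names the 10 genes, Pak4, any gene of a further list past the threshold, the 4 of each list with the smallest p, tested paralogs of the 10, and the 5 genes most like and most opposite to Cers4. One gene that this rule names is not reported here. Positions are from RefSeq genes of GRCm38.p6, which 99.8% of gene identifiers matched, and exons and transcripts from GENCODE M21.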

Additional observations from a re-analysis of the deposited data

How the results depend on the processing

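No alternative turned the direction of Cers4, which was -0.49 with library size alone and -0.51 as the log2 ratio of mean TPM, and -0.65 to -0.59 with 1 library left out. The median log2 fold change of the 10 genes (-0.13) was -0.0073 with library size alone, -0.068 by TPM, and -0.13 to -0.073 with 1 library left out. The count of all genes past the threshold (3) was 1048 with DESeq2, 5 with limma voom and 1 to 1016 with 1 library left out, the highest without KO 1; the cause was not tested. The count of other sphingolipid genes past the threshold (0) was 3 with DESeq2, where Acer2, Rtn4 and Sgpp1 passed, and 0 to 3 with 1 library left out. With the replicate number as a block, 1 gene passed over all genes and 0 other sphingolipid genes did, and Cers4 stood at -0.61. The deviations of same-numbered libraries correlated at -0.17, -0.02 and 0.05, so the numbers were not taken as a pairing. Differences in the deposited TPM of Cers4 also carry its varying length.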
